A study of Saccharomyces cerevisiae with 8 samples.

Results

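Commercial baker's yeast, Saccharomyces cerevisiae, was examined for how its messenger RNA after thawing differed between long and short frozen storage. The late side held the 4 arrays of cells frozen for 7 days and 14 days, and the early side held the 4 arrays of cells frozen for 0 days and 3 days, with 2 arrays for each time. These are all 8 arrays of the series. The cells, from compressed yeast, were brought to an OD600 of 30 in liquid fermentation medium that lacked sucrose and maltose, then frozen at -20 °C and thawed for 10 min in a water bath at 30 °C. Every group shared this suspension, the thaw, hot phenol extraction and poly(A) enrichment, and the 0 day cells carry the same protocol with a storage time of 0 days. The strain is not given in the labels, and the series' design text describes the duplicates as independent samples. Each gene was compared 4 arrays against 4, with late minus early as the log2 difference.

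Freezing injures yeast through ice formation, dehydration and oxidation, and cells that thaw must refold or degrade damaged proteins. Yeast under stress commonly raises chaperones, antioxidant enzymes and storage carbohydrate genes through the factors Hsf1, Msn2 and Msn4, and lowers genes of ribosome production. Respiratory genes depend on the Hap2/3/4/5 activator, and iron uptake genes depend on the factors Aft1 and Aft2.

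Late arrays differed from early arrays in 987 of 5188 tested genes, 19.0% of them, at a limma adjusted p under 0.05 (called). Of these, 568 genes were higher after late freezing (10.9% of those tested) and 419 were lower (8.08%). The median log2 difference was 1.25 among the genes called higher and -1.10 among those called lower, against 0.12 over all tested genes. At least a 2-fold difference was reached by 439 of the genes called higher and 260 of those called lower, and at least 4-fold by 53 and 19. The values of the late and early arrays did not overlap in 1222 genes (23.6% of those tested), with the late arrays above in 683 and below in 539. Genes were tested where their mean over all 8 arrays reached 4.16 on the log2 scale. In 18 genes called higher the early mean lay below this filter, and in 7 called lower the late mean did, so that these genes were tested only through their brighter side. The split of the calls into higher and lower rests on the scaling between arrays. Without normalisation 1520 of 5191 tested genes were higher and 65 lower, and with equal array medians 637 of 5188 were higher and 304 lower. List counts without normalisation, given below, are to be set against 1520 of 5191 and not against 10.9%. The number of calls also moved by over 1.5 times with array weights in the fit (1494 calls). It did so without 7 day replicate 1 (496 calls), 14 day replicate 1 (549) or 14 day replicate 2 (589). The same held without both 3 day arrays (449), both 7 day arrays (247) or both 14 day arrays (62).

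The early and late sides coincide with the largest pattern among the arrays. On the first principal component, with 39.6% of the variance, the late arrays lay at 31.3 and 18.5 (7 days) and at 32.5 and 31.6 (14 days), against -13.4 and -35.7 (0 days) and -27.1 and -37.7 (3 days) in the early arrays. The sides were set with this pattern known, so the counts above describe it and are no independent support for it. On the second component (18.5%) 0 day replicate 1 stood alone at 52.3, while the other arrays lay between -14.3 and -1.29. Without that array 1273 genes were called, 738 higher and 535 lower. Across genes, arrays correlated at r between 0.927 and 0.965 within the late side, between 0.866 and 0.935 within the early side, and between 0.830 and 0.888 across the sides. Ribosomal RNA control probe sets lay above the array median by a factor of 17.1 and 22.7 after 7 days and of 21.7 and 15.7 after 14 days, against 8.85 and 6.76 after 0 days and 7.75 and 11.3 after 3 days. All late arrays exceeded all early arrays, and the means differed by 1.17 on the log2 scale (exact two-sided permutation p = 0.0286, the smallest that 4 arrays against 4 allow, and 0.171 after Benjamini-Hochberg adjustment over 6 array measures). The 3' to 5' ratios of the ACT1 and SPT15 control probe sets, which are high where RNA is broken, overlapped between the sides (exact permutation p = 0.971 and 0.714). The part of the ribosomal RNA signal in the gene differences was not tested.

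**Figure D1:**
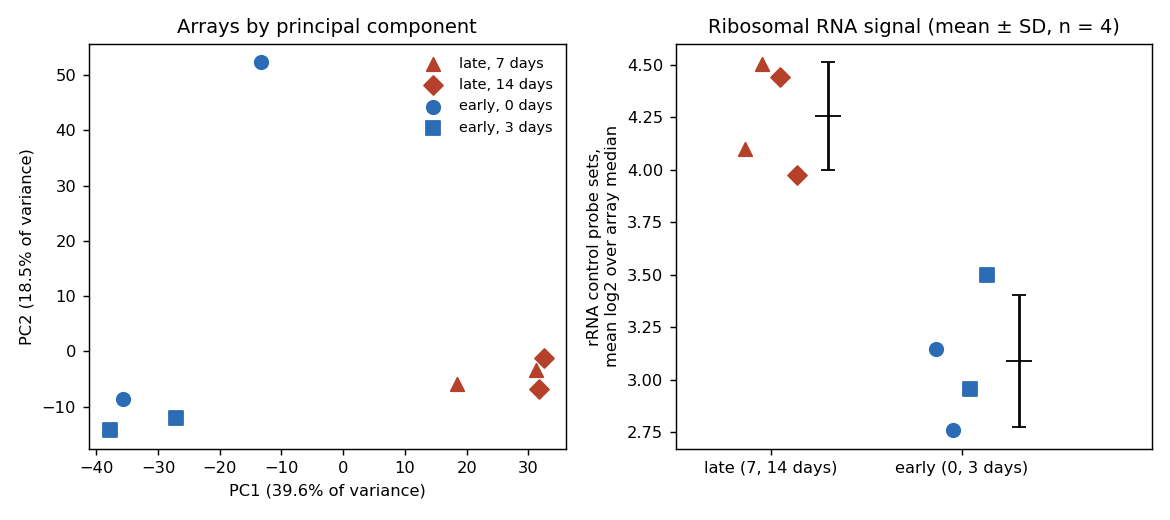
Left, the 8 arrays by their first and second principal component (arbitrary units), with late arrays in red and early arrays in blue. Right, the mean log2 signal of the ribosomal RNA control probe sets over the median of each array, with points for arrays and bars for the mean ± SD of each side (n = 4 each). The sides do not overlap on the first component or in the ribosomal RNA signal, and 0 day replicate 1 stands alone on the second component.

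Within each side the freezing times differed less. Between 14 and 7 days 0 genes were called (0% of 5188) and 48 had an unadjusted limma p under 0.05, with a smallest adjusted p of 1. Between 3 and 0 days 0 genes were called (0%) and 364 had an unadjusted p under 0.05, with a smallest adjusted p of 0.215. Leaving out 7 day replicate 1 gave 6 calls between 14 and 7 days, leaving out 0 day replicate 2 gave 16 between 3 and 0 days and leaving out 3 day replicate 1 gave 3, and the other alternatives run gave 0. The median absolute log2 difference was 0.52 between late and early, 0.38 between 3 and 0 days and 0.23 between 14 and 7 days. These comparisons are not equally precise, since the median standard error was 0.31 for 4 arrays against 4 and 0.45 for 2 against 2. Of the 987 genes called between the sides, 733 (74.3%) had both of their within-side differences below 0.5 times the late minus early difference in size, against 25.9% of all tested genes. The choice of called genes favours a large late minus early difference, so this share is a description. The genes called higher had a median difference of 0.09 between 14 and 7 days and -0.06 between 3 and 0 days, and the genes called lower had -0.15 and 0.08.

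**Figure D2:**
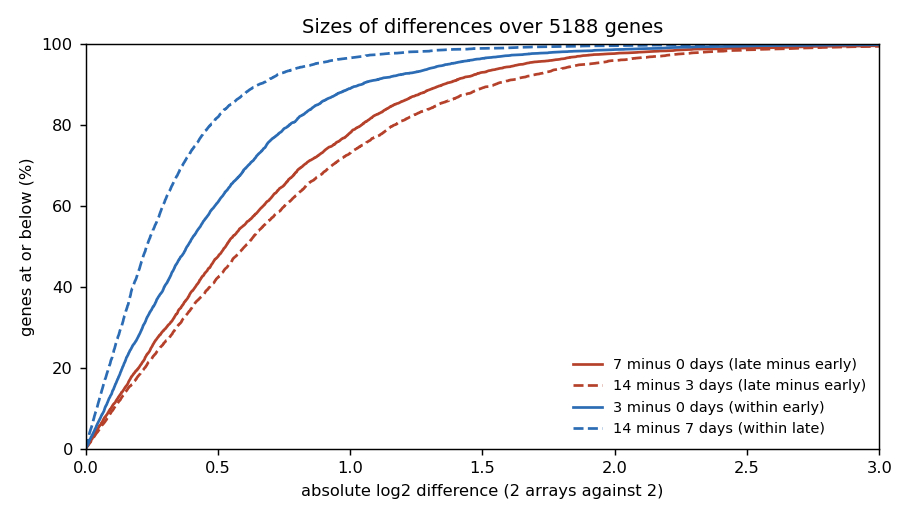
Cumulative share of genes (%) against the absolute log2 difference between 2 arrays and 2 arrays, for the late minus early pairs (red) and the pairs within a side (blue). The curve for 14 minus 7 days reaches high shares at the smallest differences, followed by 3 minus 0 days, and the curves across the sides lie to the right of both.

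The difference was also read in sets of arrays that share none. The log2 differences of 7 minus 0 days and of 14 minus 3 days correlated at r = 0.580 over 5188 genes and had the same sign in 72.5%. The other way of pairing the times, 7 minus 3 days and 14 minus 0 days, gave r = 0.607 and the same sign in 73.9%. These correlations are across genes, which are not independent replicates, and they describe a pattern with which the sides were chosen. Of the 100 largest rises between 7 and 0 days, 81 were also higher at 14 days than at 3 days, with a median log2 difference of 2.29 where they were chosen and 0.96 where they were read. Of the 100 largest falls, 86 were also lower, with medians of -1.76 and -1.20. Further probe sets of the called genes pointed the same way in 114 of 134 cases, over 65 genes. Several of them belong to a single gene, YGR109W-B, and many can bind related transcripts. They were read on the same arrays as the calls, so the tally is a description.

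**Figure D3:**
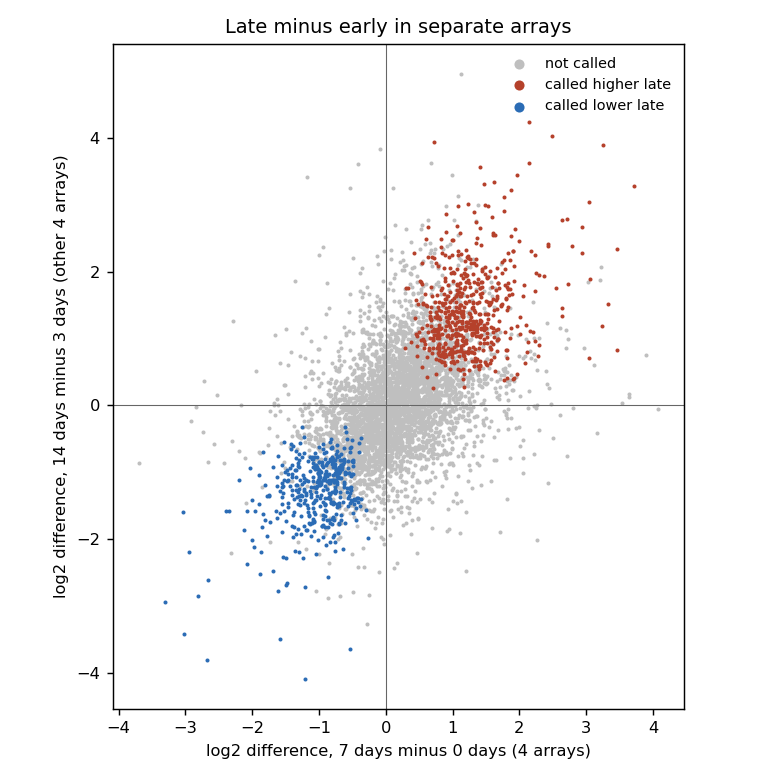
Each point is a gene, by its log2 difference of 7 minus 0 days and of 14 minus 3 days, which come from different arrays. Genes called between late and early are coloured, red for higher and blue for lower, and lie in the upper right and lower left because the call uses the same arrays.

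Chaperone genes were higher after late freezing. In the list of heat shock proteins and co-chaperones, 23 of 35 tested members rose and 0 fell, 65.7% against 10.9% of all tested genes, with a median log2 difference of 0.90 against 0.12. Here and in every list below, fewer cells with a transcript and less of it per cell cannot be told apart in bulk RNA. FES1, the exchange factor that releases substrates from Hsp70, stood at 13.12, 12.86, 13.08 and 13.19 on the log2 scale in the late arrays (2 at 7 days, then 2 at 14 days) and at 11.71, 11.71, 11.85 and 11.98 in the early arrays (2 at 0 days, then 2 at 3 days, the order used throughout). All 4 late values lay above all 4 early values, and the means differed by 1.25 ± 0.14 (SE, limma adjusted p = 0.000412). HSP42, a small heat shock protein that gathers misfolded proteins, measured 12.39, 11.38, 11.74 and 12.25 in the late arrays and 10.36, 10.10, 10.23 and 10.30 in the early arrays, a log2 difference of 1.69 ± 0.23 (limma adjusted p = 0.00106). The mitochondrial co-chaperonin HSP10 gave 12.20, 12.19, 12.19 and 12.46 late and 10.84, 11.01, 10.93 and 11.06 early, 1.30 ± 0.16 apart (limma adjusted p = 0.000586). For both genes the sides were apart, and their early arrays were close together. Among the other members called higher, HSP30, a membrane protein of stressed cells, rose by 2.01, the Hsp110 SSE2 by 2.0, the disaggregase HSP104 by 0.75 and the Hsp90 gene HSC82 by 0.52 on the log2 scale. Per array, the list's median (relative to the early mean of each gene) was 0.96, 0.70, 0.72 and 1.11 in the late arrays and 0.11, -0.23, -0.01 and 0.17 in the early arrays. The count was 16 with equal array medians and 26 without normalisation. It was also 23 without 0 day replicate 1, and among fits without 1 array it was lowest, 15, without 14 day replicate 2.

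In the list of proteasome genes 5 of 36 tested members rose (13.9%, near the background of 10.9%) and 0 fell, with a median of 0.45. The activator of proteasome genes, RPN4, was at 11.24, 11.45, 10.84 and 11.55 in the late arrays and 9.87, 10.10, 9.61 and 9.71 in the early arrays. It was higher in every late array, with a mean difference of 1.45 ± 0.22 (limma adjusted p = 0.0018). The subunit genes RPT6 (0.80 ± 0.21, limma adjusted p = 0.0236) and PUP3 (0.97 ± 0.26, adjusted p = 0.0246) rose by less. Omission of 1 array gave between 1 rise (without 7 day replicate 1 or 14 day replicate 2) and 7 (without 0 day replicate 1). Without normalisation 21 members rose, with a median of 1.09 against 0.61 over all genes. Autophagy and vacuolar protease genes included 8 of 26 that rose (30.8%) and 0 that fell, with a median of 0.63. Among them were ATG8, whose product coats autophagosomes, with 10.46, 10.07, 10.40 and 9.84 late and 8.85, 8.61, 9.46 and 7.70 early, and ATG3, which attaches lipid to Atg8, with 6.67, 6.88, 6.75 and 6.83 late and 5.50, 5.34, 5.38 and 5.69 early. Neither gene overlapped between the sides, and their differences were 1.54 ± 0.34 and 1.31 ± 0.25 (limma adjusted p = 0.0104 and 0.00619). The vacuolar protease gene PEP4 rose by 0.85 ± 0.21 (limma adjusted p = 0.0162). Without 0 day replicate 1, 11 autophagy and protease genes rose, and without normalisation 14. The count was 2 without 7 day replicate 1, 3 without 14 day replicate 1, 4 without 0 day replicate 2, and 5 without 3 day replicate 1, 7 day replicate 2 or 14 day replicate 2.

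General stress genes, of the kind that Msn2 and Msn4 control, were higher late in 22 of 49 tested members (44.9%), and 0 were lower, with a median log2 difference of 1.27. Among the members called higher, the largest rises were in GND2, a minor 6-phosphogluconate dehydrogenase (2.24), the cytosolic catalase CTT1 (2.22) and the glycogen synthase GSY2 (2.11). Between 3 and 0 days CTT1 also differed by 2.11 and GSY2 by -1.49, and the arrays of GSY2 overlapped between the sides. HSP12, a membrane-stabilising hydrophilin, read 12.98, 13.03, 13.12 and 12.97 in the late arrays against 11.91, 11.61, 11.95 and 11.36 in the early arrays. It differed by 1.31 ± 0.16 (limma adjusted p = 0.000586) with no overlap. NCE103, carbonic anhydrase, had 9.98, 10.75, 11.61 and 10.86 late and 9.20, 9.36, 8.97 and 8.86 early, a difference of 1.70 ± 0.31 (limma adjusted p = 0.00458). A single early array stood apart in this list. The median over members was 1.51, 0.84, 1.60 and 1.10 in the late arrays, against 1.12 in 0 day replicate 1 and -0.47, -0.01 and -0.37 in the other early arrays. Thus 0 day replicate 1 lay among the late arrays for these genes. Without it 37 of the list's members rose, and without normalisation 45, a setting in which 1520 of 5191 tested genes rose. The count was 9 without 7 day replicate 1, 11 without 14 day replicate 1 and 13 without 0 day replicate 2.

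Of the trehalose, glycogen and glycerol genes, 7 of 25 rose (28.0%) and 1 fell, with a median of 1.07, and GSY2, GLC3, GPH1, TPS1 and ATH1 are counted in the general stress list too. The glycogen synthase GSY1 was at 7.24, 7.13, 7.28 and 6.84 in the late arrays and 5.95, 5.37, 5.52 and 4.79 in the early arrays. STL1, which imports glycerol with protons, was at 6.63, 7.71, 6.88 and 8.40 late and 5.53, 5.90, 3.93 and 4.74 early. Both were above every early array in every late array, by 1.71 ± 0.30 and 2.38 ± 0.47 (limma adjusted p = 0.00342 and 0.00677). The member that fell was GPD2, a glycerol 3-phosphate dehydrogenase of anaerobic cells, at 6.77, 6.57, 7.62 and 6.23 late and 8.49, 8.67, 7.88 and 8.05 early (-1.47 ± 0.32, limma adjusted p = 0.0103). The list's median was 0.56 in 0 day replicate 1, above 7 day replicate 2 (0.49) and 14 day replicate 2 (0.54), so that the sides overlapped. The count of rises was 17 without normalisation, 11 without 0 day replicate 1, 2 without 7 day replicate 1, 3 without 14 day replicate 1, and 4 without 0 day replicate 2, 3 day replicate 1 or 14 day replicate 2. Oxidative stress defence genes rose in 11 of 37 (29.7%) and fell in 0, with a median of 0.84. They included the peroxiredoxins TSA1, AHP1 and PRX1, and also CTT1, which is counted in the general stress list too. TSA1 was at 10.31, 11.46, 11.65 and 11.63 in the late arrays and 9.90, 9.50, 9.34 and 9.61 in the early arrays, so that 7 day replicate 1 was well below the other late arrays and still above every early array (1.67 ± 0.30, limma adjusted p = 0.00383). AHP1 rose by 1.55 ± 0.30 and PRX1 by 1.48 ± 0.29 (limma adjusted p = 0.00589 and 0.00683). In this list 26 members rose without normalisation, 17 with equal array medians, 19 without 0 day replicate 1, and 7 without 7 day replicate 1 or without 14 day replicate 1.

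**Figure D4:**
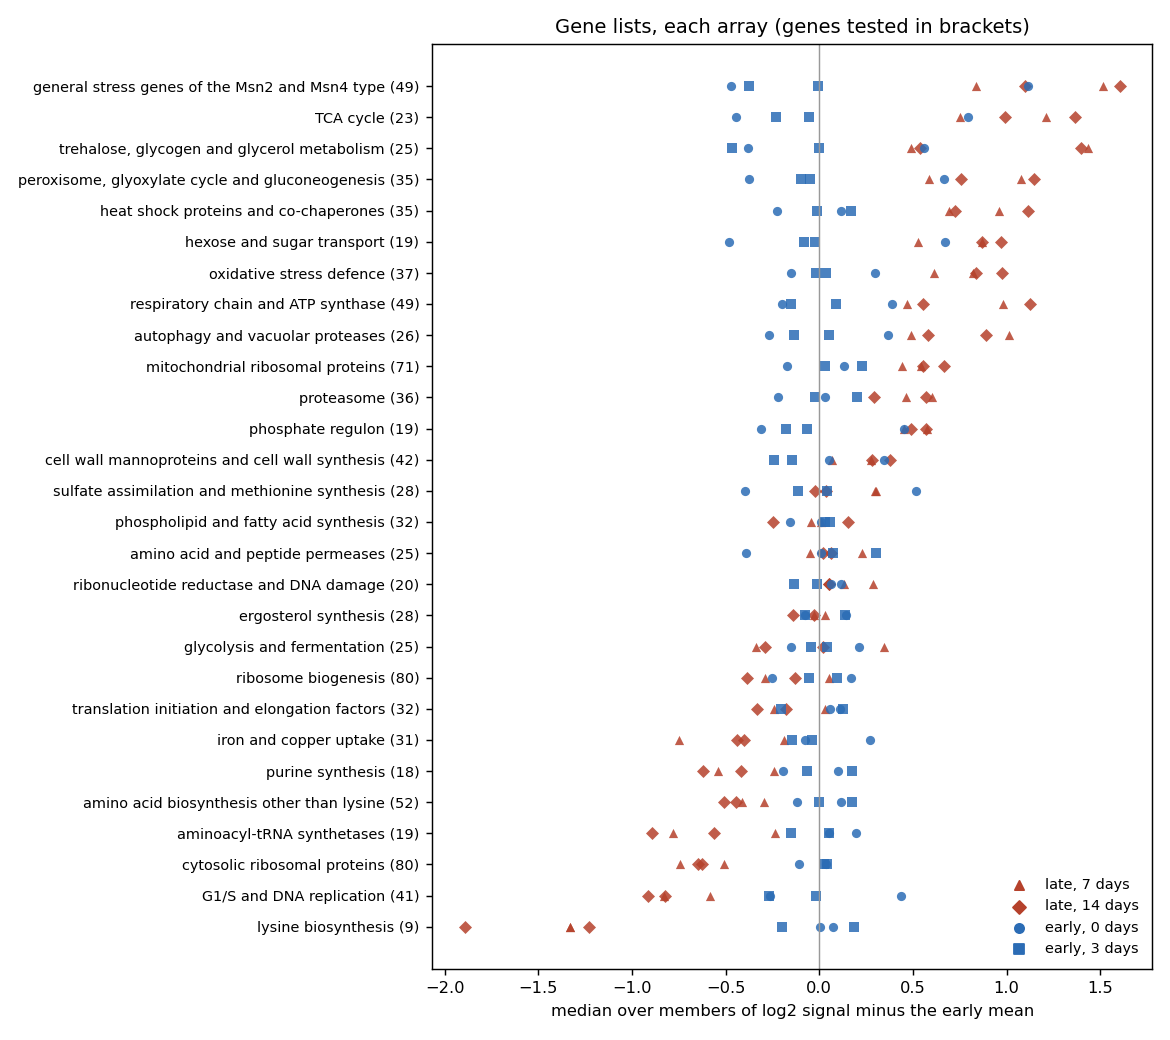
Median over the tested members of each gene list of the log2 signal minus the mean of the 4 early arrays, with a point for each array, red for late and blue for early. Lists of stress, respiration and storage carbohydrates lie to the right in the late arrays, lists of ribosomal proteins, replication and lysine synthesis to the left, and 0 day replicate 1 lies among the late arrays in several of the upper lists.

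Genes of the TCA cycle and of respiration were higher after late freezing. In the TCA cycle, 11 of 23 tested genes rose (47.8%) and 0 fell, with a median log2 difference of 1.11. IDH1 and IDH2 encode the subunits of the NAD-dependent isocitrate dehydrogenase. IDH1 (YNL037C) measured 10.13, 9.89, 10.28 and 10.94 in the late arrays and 8.40, 7.71, 7.32 and 7.01 in the early arrays. IDH2 (YOR136W) measured 12.01, 12.68, 12.19 and 13.0 in the late arrays and 10.73, 8.69, 9.05 and 10.60 in the early arrays. Both were among the 12 largest rises, by 2.70 ± 0.33 and 2.70 ± 0.42 (limma adjusted p = 0.000586 and 0.00212), with every late array above every early array. The aconitase gene ACO1, the preceding step, was at 10.66, 10.87, 11.10 and 11.60 late and 9.73, 8.52, 8.47 and 9.13 early, apart by 2.09 ± 0.31 (limma adjusted p = 0.00165). Fumarase (FUM1, 1.76), succinate dehydrogenase (SDH2, 1.58, and SDH4, 1.48) and citrate synthase (CIT1, 1.09) rose as well, though the arrays of SDH2 and CIT1 overlapped between the sides. The list's median in 0 day replicate 1 was 0.79, just above the lowest late array (0.75), and 15 members rose without it. Without normalisation 18 rose, and 16 with equal array medians. The count was 5 without 0 day replicate 2, 7 day replicate 1 or 14 day replicate 1, and 7 without either 3 day array or 14 day replicate 2.

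The list of the respiratory chain and ATP synthase had 17 of 49 members that rose (34.7%) and 0 that fell, with a median of 0.75. Among those that rose, SDH1, SDH2 and SDH4 are counted in the TCA cycle list too, so the 2 counts are not separate. The strongest call of the respiratory list was HAP4, the limiting subunit of the activator of respiratory genes. HAP4 was at 8.37, 8.83, 9.02 and 9.55 in the late arrays and 6.82, 6.65, 6.77 and 6.71 in the early arrays. The early arrays were nearly equal and all late arrays lay above them, by 2.20 ± 0.27 (limma adjusted p = 0.000586). QCR2, a core subunit of complex III, rose by 1.55 ± 0.30, and SCO1, which delivers copper to cytochrome oxidase, by 1.30 ± 0.26 (limma adjusted p = 0.00648 and 0.00733). Without 7 day replicate 1 or 14 day replicate 1, 4 members rose, without 3 day replicate 2, 6, without 0 day replicate 2, 7, and without 0 day replicate 1, 23. Without normalisation 38 rose. Mitochondrial ribosomal protein genes rose in 17 of 71 (23.9%) and fell in 0, with a median of 0.54. RSM24 was at 8.12, 8.50, 8.21 and 8.47 late and 6.83, 6.95, 7.07 and 6.37 early, and MRPL40 at 7.98, 8.12, 8.14 and 8.24 late and 6.31, 6.59, 6.10 and 7.09 early. Neither overlapped between the sides (1.52 ± 0.25 and 1.60 ± 0.26, limma adjusted p = 0.00248 and 0.00253), and MRPL28 rose by 1.58 ± 0.26 (limma adjusted p = 0.00266). For this list 9 members rose without 7 day replicate 1 or 14 day replicate 2, 11 without 0 day replicate 2 or 3 day replicate 1, and 43 without normalisation.

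Genes of sugar transport, peroxisomes and the glyoxylate cycle rose in part. In the list of hexose and sugar transport 7 of 19 members rose (36.8%) and 0 fell, with a median of 0.88. This list holds regulators as well as transporters, and the regulators MIG1, MIG2 and MTH1 are among the members that rose. The transporter genes HXT2 and HXT6, of intermediate and high affinity for glucose, rose by 1.16 ± 0.22 and 0.98 ± 0.22 (limma adjusted p = 0.00571 and 0.0116), and the HXT6 probe set can bind its near-identical copy HXT7. MIG2, a glucose-dependent repressor, was at 7.57, 7.84, 7.71 and 7.45 late and 6.67, 5.87, 5.68 and 5.79 early (1.64 ± 0.28, limma adjusted p = 0.00287). In the list of peroxisome, glyoxylate cycle and gluconeogenesis genes 7 of 35 rose (20%) and 0 fell, with a median of 0.99. ICL1, isocitrate lyase of the glyoxylate cycle, was at 12.08, 11.80, 12.14 and 12.15 in the late arrays and 11.24, 10.16, 10.71 and 10.46 in the early arrays, a difference of 1.40 ± 0.23 (limma adjusted p = 0.00248). The peroxisomal fatty acid enzymes TES1 and ECI1 rose by 1.42 ± 0.24 and 1.64 ± 0.30 (limma adjusted p = 0.00331 and 0.00446). Without 0 day replicate 1, 17 members of the peroxisomal list and 12 of the transport list rose. Without 7 day replicate 1 there were 5 and 4, and the transport count was 4 as well without 3 day replicate 1. Without normalisation 21 members of the peroxisomal list and 13 of the transport list rose, and 12 of the peroxisomal list with equal array medians. In both lists the median of 0 day replicate 1 (0.67 each) lay above the lowest late array (0.59 in the peroxisomal list and 0.53 in the transport list). Of the glycolysis and fermentation genes 0 of 25 rose and 5 fell (20% against 8.08%), and their median was -0.04, or -0.50 with equal array medians. PFK2, a subunit of phosphofructokinase, fell by 0.95 ± 0.21, and PGI1, phosphoglucose isomerase, by 1.15 ± 0.28 (limma adjusted p = 0.0101 and 0.0152). ENO2, an enolase, fell by 1.99 ± 0.50 (limma adjusted p = 0.0169) on a probe set that does not separate related transcripts fully. ENO2 was at 9.86, 6.93, 9.40 and 8.57 late and 10.65, 10.92, 10.90 and 10.25 early, with 7 day replicate 2 the lowest. Without normalisation 3 members of this list were called higher and 1 lower, and without 14 day replicate 2 there were 3 falls.

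Cytosolic ribosomal protein genes were lower after late freezing. Of 80 tested, 50 fell (62.5% against 8.08% of all genes) and 0 rose, with a median log2 difference of -0.70, which was -0.58 without normalisation (17 calls) and -1.05 with equal array medians (59 calls). RPS1B (YML063W), of the small subunit, stood at 9.35, 9.44, 9.35 and 8.97 in the late arrays and 11.37, 11.59, 11.40 and 11.67 in the early arrays. All late values were below all early values, with a mean difference of -2.23 ± 0.20 (limma adjusted p = 0.000173). RPL7B (YPL198W), of the large subunit, had 8.57, 9.80, 9.50 and 8.49 late and 11.23, 10.36, 11.53 and 12.03 early, lower by 2.19 ± 0.38 (limma adjusted p = 0.00332). RPS22A was at 12.97, 13.26, 13.03 and 13.01 late and 14.01, 14.21, 14.21 and 14.21 early, where 3 early arrays hold the top value of the normalised scale. It fell by 1.09 ± 0.12 (limma adjusted p = 0.000273), and a larger difference could not show there. RPS10B fell by 1.42 ± 0.20 (limma adjusted p = 0.00118). The probe sets of RPS1B, RPL7B and RPS10B can bind paralogous transcripts, so the share of each copy is uncertain. The list's median was -0.74, -0.51, -0.63 and -0.65 in the late arrays, against -0.11, 0.04, 0.03 and 0.04 in the early arrays. There were 45 falls without 0 day replicate 1 and 6 without both 14 day arrays.

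Other parts of the translation apparatus fell in smaller shares. The medians of ribosome biogenesis and translation factor genes turned with the scaling, while the synthetase median was negative in all 24 settings (the main one and 23 alternatives). Relative to the median of all genes, all 3 lists were lower late in all 24 settings. Of the ribosome biogenesis genes 15 of 80 fell (18.8%) and 1 rose, with a median of -0.14, which turned to 0.42 without normalisation (4 called higher and 0 lower). The small-subunit processome genes UTP22 and UTP20 fell by 1.14 ± 0.24 and 1.39 ± 0.32, and RRP5, a ribosomal RNA processing factor, by 1.08 ± 0.24 (limma adjusted p = 0.00794, 0.0121 and 0.0106). Further probe sets of UTP20 differed by -0.82, -0.41, -0.25, 0.59 and 0.97, so its probe sets did not all fall. The member that rose was the box C/D small nucleolar RNP protein NOP58 (0.48). Translation factor genes fell in 3 of 32 (9.38%, near the background of 8.08%) and rose in 0, with a median of -0.18 that turned to 0.29 without normalisation. These were PRT1 (-0.96 ± 0.24, limma adjusted p = 0.0167) and TIF4631 (-0.88 ± 0.27, adjusted p = 0.0395), both of translation initiation, and the elongation factor TEF4. TEF4 was at 9.44, 10.49, 9.44 and 9.75 late and 11.04, 10.90, 10.29 and 10.97 early, so that the sides overlapped (-1.02 ± 0.28, limma adjusted p = 0.0246). Aminoacyl-tRNA synthetase genes fell in 7 of 19 (36.8%) and rose in 0, with a median of -0.53, or -0.05 and 0 calls without normalisation. HTS1, for histidine, was at 9.67, 9.49, 9.51 and 9.41 in the late arrays and 10.51, 10.45, 10.26 and 10.45 in the early arrays, lower in every late array by 0.90 ± 0.20 (limma adjusted p = 0.011). SES1, for serine, fell by 0.99 ± 0.23 and CDC60, for leucine, by 1.06 ± 0.26 (limma adjusted p = 0.0136 and 0.016). Leaving out 1 array gave 5 (0 day replicate 2) to 19 (0 day replicate 1) falls in the biogenesis list, 0 (7 day replicate 1 or 14 day replicate 1) to 3 among translation factors, and 2 (14 day replicate 1) to 9 among synthetases. NOP58 was not called in any of these fits.

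Every tested lysine synthesis gene was lower after late freezing in the main scaling, 9 of 9 against 8.08% of all genes. The median was -1.46, or -1.31 with equal array medians (9 calls) and -0.84 without normalisation (3 calls). LYS9 (YNR050C), a saccharopine dehydrogenase of a late step, had 7.55, 8.11, 7.85 and 7.63 in the late arrays and 10.42, 10.87, 10.12 and 11.06 in the early arrays. LYS2, the aminoadipate reductase, had 7.46, 7.87, 8.02 and 7.71 late and 9.95, 9.64, 9.52 and 9.95 early. LYS12 (YIL094C), the homoisocitrate dehydrogenase, had 9.63, 9.84, 8.18 and 9.38 late and 11.15, 11.31, 11.36 and 11.59 early. In all 3 genes every late array lay below every early array, and the means fell by 2.84 ± 0.27, 2.0 ± 0.24 and 2.09 ± 0.32 (limma adjusted p = 0.000177, 0.000509 and 0.0018). The first enzymes, the homocitrate synthases LYS20 and LYS21, fell by 0.63 and 1.35, and LYS14, the transcriptional activator of the pathway, fell by 1.17 on the log2 scale. Leaving out any 1 array left 8 or 9 members called, and leaving out both 14 day arrays left 3.

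Of the other amino acid synthesis genes 12 of 52 fell (23.1%) and 1 rose, with a median of -0.49 that was 0.00 without normalisation (4 called higher and 2 lower). HIS6, of histidine synthesis, was at 6.57, 6.52, 6.72 and 6.85 late and 8.27, 8.73, 8.70 and 8.02 early, and ASN1, an asparagine synthetase, was at 7.06, 6.70, 7.16 and 6.49 late and 7.82, 8.54, 9.18 and 8.85 early. Both were lower in every late array (-1.77 ± 0.25 and -1.74 ± 0.31, limma adjusted p = 0.00125 and 0.0042). CPA1, the small subunit of the arginine-specific carbamoyl phosphate synthase, rose by 0.76 ± 0.15 (limma adjusted p = 0.00677). Sulfate assimilation and methionine synthesis genes rose in 3 of 28 (10.7%, at the background) and fell in 0, with a median of 0.14. They were CYS3 (0.90 ± 0.20, limma adjusted p = 0.0112), MET1 (0.81 ± 0.26, adjusted p = 0.0486) and MET16 (1.11 ± 0.33, adjusted p = 0.0328), and the arrays of MET16 overlapped between the sides. The sulfate list's median in 0 day replicate 1 (0.52) lay above every late array (-0.02 to 0.30). Purine synthesis genes fell in 6 of 18 (33.3%) and rose in 0, with a median of -0.47, or -0.09 and 0 calls without normalisation. ADE4, the first enzyme of the pathway, was at 6.75, 7.32, 7.18 and 7.14 in the late arrays and 8.15, 8.51, 7.87 and 8.31 in the early arrays (-1.11 ± 0.25, limma adjusted p = 0.011). ADE6 and ADE17 fell by 0.75 ± 0.21 and 0.85 ± 0.24 (limma adjusted p = 0.0277 and 0.0282). Leaving out 1 array gave 6 (7 day replicate 1 or either 14 day array) to 13 falls among the other amino acid genes. It gave 1 (7 day replicate 1 or 14 day replicate 2) to 5 falls among purine genes and 1 to 4 rises among sulfate genes. Without normalisation 10 sulfate genes rose, with a median of 0.65 against 0.61 over all genes.

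Genes of deoxyribonucleotide supply and replication were among those lower after late freezing. RNR1 (YER070W), the large subunit of ribonucleotide reductase, was at 6.70, 8.03, 6.55 and 7.06 in the late arrays and 10.40, 10.93, 9.55 and 9.94 in the early arrays. RNR3 (YIL066C), the damage-inducible alternative large subunit, was at 7.01, 6.62, 5.34 and 6.0 late and 8.58, 10.41, 9.96 and 9.0 early. The sides were apart for both genes, by 3.12 ± 0.37 and 3.25 ± 0.44 lower late (limma adjusted p = 0.000509 and 0.000985), and the RNR3 probe set can bind more than 1 transcript. RNR2, the small subunit, fell by 1.16 ± 0.27 (limma adjusted p = 0.0127). In the list of ribonucleotide reductase and DNA damage genes 4 of 20 fell (20%) and 1 rose, the recombination gene RAD52 (1.01), and the median was -0.01, or 0.50 without normalisation. In the list of G1/S and DNA replication genes 12 of 41 fell (29.3%) and 0 rose, with a median of -0.78, or -0.35 without normalisation (6 calls). CDC21 (YOR074C), thymidylate synthase, was dim, with 3.32, 2.15, 3.84 and 3.77 late and 4.86, 6.69, 5.49 and 5.32 early, lower by 2.31 ± 0.62 (limma adjusted p = 0.0234). All its late values lay below the filter of 4.16, so it was tested only through the early arrays. POL12 and POL1, subunits of the DNA polymerase alpha-primase complex, had 4.68, 5.35, 4.80 and 5.13 and 5.63, 6.59, 6.09 and 5.73 in the late arrays, against 6.91, 7.28, 6.73 and 6.37 and 7.08, 8.07, 7.60 and 7.15 in the early arrays. Both were lower in every late array, by 1.83 ± 0.31 and 1.47 ± 0.31 (limma adjusted p = 0.003 and 0.00845), and RFA3, of the single-strand binding complex, by 1.65 ± 0.35 (limma adjusted p = 0.00877). The replication list had 16 falls without 0 day replicate 1, 6 without 0 day replicate 2 and 5 without 7 day replicate 1.

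Iron and copper genes moved both ways. In that list 8 of 31 fell (25.8%) and 4 rose (12.9%), with a median of -0.43 that turned to 0.16 without normalisation (8 higher and 5 lower). SMF3 (YLR034C), which exports iron from the vacuole, had 7.28, 8.13, 7.56 and 7.41 in the late arrays and 10.49, 10.24, 10.11 and 10.09 in the early arrays. FET4 (YMR319C), the low-affinity iron transporter of the plasma membrane, had 8.54, 9.06, 8.05 and 9.15 late and 10.68, 10.67, 11.09 and 11.16 early. Both were lower in every late array, by 2.64 ± 0.25 and 2.20 ± 0.28 (limma adjusted p = 0.000177 and 0.000611). The high-affinity uptake pair FET3 and FTR1 fell by 1.68 and 1.72, and the surface reductases FRE1 and FRE4 by 1.35 and 1.76. The arrays of FET3 overlapped between the sides. ISU1, the mitochondrial scaffold on which iron-sulfur clusters are built, was at 11.28, 11.23, 11.35 and 11.91 late and 10.01, 8.97, 9.33 and 9.58 early, higher by 1.97 ± 0.26 (limma adjusted p = 0.000817). The cell wall mannoprotein FIT1, which holds siderophores, rose by 1.56 and the vacuolar iron exporter FTH1 by 0.90. Fits without 1 array gave 6 to 8 falls and 1 (7 day replicate 1 or 14 day replicate 2) to 5 rises.

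Cell wall genes also split: 7 of 42 rose (16.7%) and 4 fell (9.52%), with a median of 0.30 that was -0.04 without both 3 day arrays. The list's median in 0 day replicate 1 was 0.35, within the late range of 0.07 to 0.38, so that the sides overlapped. TIP1, a wall mannoprotein known for induction by cold, read 12.75, 12.44, 12.68 and 12.91 in the late arrays and 11.23, 10.64, 10.82 and 10.67 in the early arrays. It lay apart by 1.85 ± 0.19 (limma adjusted p = 0.000218). SPI1, a wall protein of the general stress list, rose by 1.78 ± 0.34, and RLM1, the transcription factor of the cell wall integrity pathway, by 1.31 ± 0.24 (limma adjusted p = 0.00589 and 0.00544). YGP1, which also rose, is counted in the general stress list too. The members that fell included the glucan synthase FKS1 (-1.0) and the chitin synthase CHS3 (-1.11), though 0 members fell without normalisation. The arrays of FKS1 overlapped between the sides. Its further probe sets differed by -0.77, -1.05, -1.03, -0.67, 0.02 and 0.29, so they did not all fall. With 1 array left out there were 5 to 11 rises (11 without 0 day replicate 1) and 1 to 4 falls (1 without 7 day replicate 1 or 14 day replicate 1), and 17 rises without normalisation. Phosphate genes rose in 6 of 19 (31.6%) and fell in 1, with a median of 0.43. SPL2, PHO4 and PHM8 rose by 1.33 ± 0.31, 1.26 ± 0.31 and 1.23 ± 0.31 (limma adjusted p = 0.0126, 0.0172 and 0.0187), and PHO3, an acid phosphatase repressed by thiamin, fell by 1.74. Rises numbered 1 without 14 day replicate 1, 3 without 0 day replicate 2, 3 day replicate 1, 7 day replicate 1 or 14 day replicate 2, 8 without 0 day replicate 1 and 10 without normalisation. The lowest late value of PHO4, the activator of the regulon, was 7.60 against a highest early value of 7.59.

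Amino acid and peptide permease genes rose in 4 of 25 and fell in 4 of 25 (16% each), with a median of 0.01. OPT2 (YPR194C), an oligopeptide transporter, was at 6.82, 7.29, 7.25 and 6.97 in the late arrays and 9.60, 10.55, 10.36 and 10.70 in the early arrays. Its highest late value lay 2.31 below its lowest early value, with a difference of -3.22 ± 0.28 (limma adjusted p = 0.000173). MUP3, a methionine permease, rose by 1.06 ± 0.25 and HIP1, a histidine permease, fell by 1.01 ± 0.26 (limma adjusted p = 0.0149 and 0.0202). Omitting 1 array gave 0 (7 day replicate 1) to 6 rises and 1 (7 day replicate 1 or 14 day replicate 1) to 5 falls, and without normalisation 8 rose and 1 fell. Lipid synthesis lists held shares below the background: 1 of 28 ergosterol genes fell and 0 rose, and 2 of 32 phospholipid and fatty acid genes rose and 1 fell, with medians of -0.02 and 0.01. Without normalisation 5 and 10 rose and 0 fell, with medians of 0.43 and 0.59 against 0.61 over all genes. The ergosterol gene was the squalene epoxidase ERG1 (-0.84 ± 0.26, limma adjusted p = 0.039). ERG29, a large rise described below, is not in the ergosterol list. INO2, an activator of phospholipid synthesis genes, was at 7.78, 9.11, 7.77 and 9.32 late and 4.66, 5.58, 6.13 and 7.92 early. These values overlapped between the sides and the difference was 2.42 ± 0.59 (limma adjusted p = 0.016). PAH1, the phosphatidate phosphatase, whose early mean of 4.04 lay below the filter, rose by 1.89 ± 0.57 and FAA3, an acyl-CoA synthetase, fell by 0.98 ± 0.26 (limma adjusted p = 0.0361 and 0.024).

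Several of the 12 largest rises were in no list. ECM13 (YBL043W), a protein of uncertain function, rose the most, with 10.67, 11.13, 10.96 and 12.12 in the late arrays and 8.88, 6.41, 7.39 and 7.89 in the early arrays. Every late array lay above every early array, and the difference was 3.58 ± 0.46 or 11.9-fold (limma adjusted p = 0.000712). ROQ1 (YJL144W), a stress protein that alters which substrates the ligase Ubr1 takes, had 11.83, 10.57, 11.05 and 12.03 late and 7.94, 7.04, 8.28 and 8.22 early, a difference of 3.50 ± 0.36 (limma adjusted p = 0.000273). ROX1 (YPR065W), the haem-dependent repressor of hypoxic genes, had 9.65, 9.09, 10.45 and 10.01 late and 7.43, 6.33, 6.40 and 6.01 early, a difference of 3.26 ± 0.36 (limma adjusted p = 0.000302). The sides did not overlap in either gene. Genes of little known function were YNR014W, with 9.37, 8.37, 9.20 and 8.30 late and 6.12, 5.53, 6.15 and 5.26 early, and ANS1 (YHR126C), with 9.93, 10.58, 10.36 and 10.23 late and 8.53, 7.70, 6.43 and 6.91 early. They rose by 3.04 ± 0.32 and 2.88 ± 0.39 (limma adjusted p = 0.000273 and 0.000985). YMR085W reached 6.92, 6.53, 6.45 and 6.67 in the late arrays and was dim in the early arrays, at 3.38, 3.17, 4.86 and 3.59 (2.90 ± 0.44, limma adjusted p = 0.00166). Its early mean of 3.75 lay below the filter, so it was tested only through the late arrays.

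Other large rises were less even across the early arrays. ERG29 (YMR134W), a gene linked to ergosterol synthesis, had 8.30, 8.01, 8.64 and 9.47 in the late arrays and 5.74, 6.29, 1.89 and 7.73 in the early arrays, where 3 day replicate 1 was close to the floor of 1.33 and 3 day replicate 2 was near the late arrays. Its difference of 3.19 ± 0.91 (limma adjusted p = 0.0292) was not called under 6 of 23 alternative settings. FPT1 (YKR011C) had 6.15, 5.07, 5.63 and 6.23 late and 2.43, 2.91, 1.74 and 4.79 early, and the mitochondrial gene FMP25 (YLR077W) had 7.41, 7.46, 7.02 and 7.40 late and 3.26, 5.72, 3.51 and 6.36 early. The early arrays of both were widely spread, and the differences were 2.81 ± 0.70 and 2.61 ± 0.59 (limma adjusted p = 0.0172 and 0.012). FPT1, with an early mean of 2.97, was tested only through the late arrays. Among the falls, YDL241W, of unknown function, had 4.59, 2.38, 4.77 and 4.69 late and 5.87, 6.99, 6.85 and 6.99 early, with 7 day replicate 2 far below the rest (-2.57 ± 0.54, limma adjusted p = 0.00833). ADY4 (YLR227C), a meiotic spindle pole body gene, had 4.89, 6.12, 1.48 and 3.82 late and 6.60, 6.84, 6.16 and 7.32 early, so that its late arrays ranged from near the floor to just below the lowest early array. Its difference was -2.65 ± 0.76 (limma adjusted p = 0.0305), and it was lost under 7 of 22 alternatives. The late means of YDL241W (4.11) and ADY4 (4.08) lay below the filter, so both were tested only through the early arrays. Of 7 tested meiosis and sporulation genes ADY4 was called lower and 0 were higher, and of 14 tested haploid and mating-type genes 2 were higher, the pheromone genes MFA1 and MFA2, and 1 was lower, the pheromone gene MF(ALPHA)1. Over all genes 10.9% were higher and 8.08% lower, so nothing is read from these few calls. The summed linear signals of the mating-type list, 1446 to 2130 in the late arrays and 1054 to 2422 in the early arrays, overlapped.

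**Figure D5:**
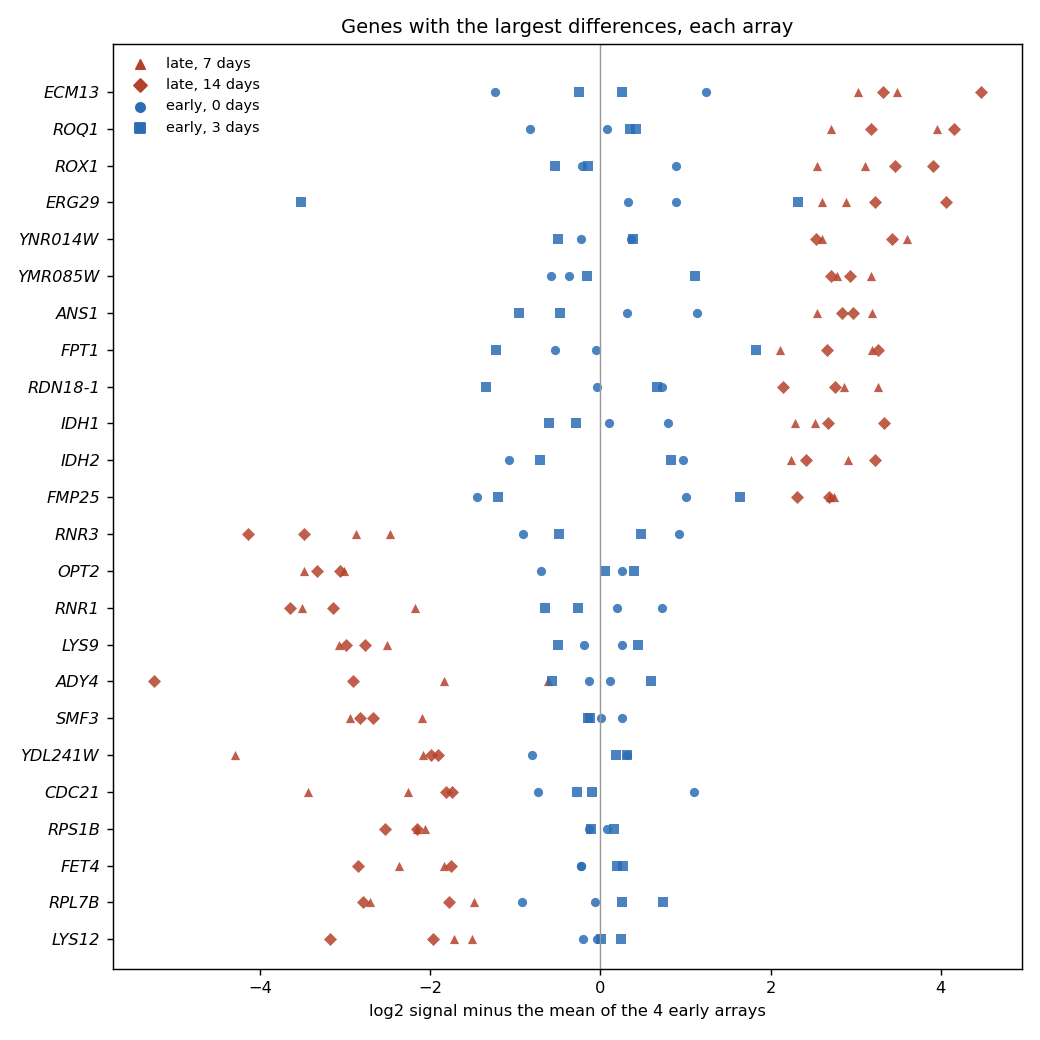
The 12 genes with the largest rises (upper rows) and the 12 with the largest falls (lower rows) among called genes without overlap. Points give the log2 signal of each array minus the mean of the 4 early arrays, red for late and blue for early, and no late point reaches an early point in any row, though ERG29, FPT1, FMP25 and ADY4 are widely spread.

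Ribosomal RNA genes and some transfer RNA genes, which carry no protein code, were higher in the late arrays, as was the signal of the ribosomal RNA control probe sets. RDN18-1, the 18S ribosomal RNA, was at 11.87, 11.47, 11.37 and 10.77 in the late arrays and 9.34, 8.57, 9.28 and 7.27 in the early arrays, a difference of 2.76 ± 0.41 (limma adjusted p = 0.00165). All 4 genes annotated as ribosomal RNA were called higher, 3 of them by 1.38 to 2.76. RDN5-1 was at the top value of the normalised scale, 14.21, in every late array, so its difference was at least 0.57. RDN37-1, the precursor gene, which is annotated in another class, was not called, at 1.24 ± 0.47 with overlapping sides (limma adjusted p = 0.0783). Of the transfer RNA genes 29 of 90 were higher (32.2% against 10.9%), 0 were lower and 61 were not called. Small nucleolar RNA genes were higher in 7 of 53 (13.2%) and lower in 4 (7.55%), near the shares of all genes. In all, 44 of 160 tested genes without a protein product were higher and 5 lower, and among protein-coding genes 524 of 5028 were higher (10.4%) and 414 lower (8.23%). The annotated gene length, introns included, had a median of 1014 bases among protein-coding genes called higher and 1323 among those called lower, against 1256 over all tested. The part of RNA without a poly(A) tail in the other differences was not tested.

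Of the 8 genes with the most extreme differences within the sides, BIO2, CDC55, YBR071W, YHR022C and RSF1 had an array at the floor of 1.33, and PRM1, ADY4 and YIL171W had none. Between 14 and 7 days, PRM1 and ADY4 were the lowest (-3.03 and -2.85) and YIL171W and BIO2 the highest (3.30 and 3.21), and BIO2 had 8.93, 1.33, 8.45 and 8.24 in the late arrays, with a lone 7 day replicate at the floor. Between 3 and 0 days, CDC55 and YBR071W were the lowest (-3.91 and -3.88) and YHR022C and RSF1 the highest (3.85 and 3.70). YIL171W had 6.23, 1.88, 9.87 and 4.85 in the late arrays, widely spread. Of these 8 genes only ADY4 was called between late and early.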

How the data were processed

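The authors deposited intensity values for each probe set on a linear scale, 1 column per array. How probes were summarised or scaled is not given in the sources used here. Of 9335 probe sets, 60 were controls and 6504 had exactly 1 gene in the platform annotation (328 had several, 2443 none), naming 5656 genes, all found in the RefSeq table of assembly R64. Arrays were quantile normalised, raised to a floor at the 5th percentile (2.52, log2 1.33) and put on the log2 scale. Probe sets with a mean below the 25th percentile (4.16) were left out, and the brightest probe set stood for each gene, leaving 5188 genes. limma 3.58.1 in R 4.3.3 fitted 1 coefficient per side with an intensity trend (6 residual and 6.78 prior degrees of freedom), two-sided, with Benjamini-Hochberg adjustment over all genes tested. Differences within sides came from a fit by freezing time. Calls had an adjusted p under 0.05. Genes were named by rule: the 12 largest rises and 12 largest falls among called genes without overlap, up to 3 called members of smallest p in each of 28 lists, and the 2 extremes each way within sides. Further members were chosen after their values were seen. The sides, lists and tests were chosen with earlier results of these data known. The fit was tested on simulated data. The number of arrays limits the precision, and 23 alternatives were run. A limma p-value sets a difference against the spread between these 8 samples. In the late minus early fit that spread holds the differences between replicates and between the 2 times of each side. Promoter sequences were not used here.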

Additional observations from a re-analysis of the deposited data

Results flagged for a closer look

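In 16 of 272 sets of 4 values, 1 array stood far from the other 3 of its side (Dixon's test at the 95% level, which chance meets in about 1 in 20 sets). Values are log2 signals, with the range of the other 3 arrays in brackets. Late arrays standing low were 14 day replicate 1 for FMP25 at 7.02 (7.40 to 7.46), 7 day replicate 1 for TSA1 at 10.3 (11.5 to 11.7), 14 day replicate 2 for ADE17 at 10.2 (10.5 to 10.6) and for YHR022C at 5.16 (5.83 to 5.94), and 7 day replicate 2 for YDL241W at 2.38 (4.59 to 4.77), for CDC55 at 4.96 (5.24 to 5.29) and for BIO2 at 1.33 (8.24 to 8.93). Late arrays standing high were all 14 day replicate 2, for HSP10 at 12.5 (12.2 in the others), MRPL28 at 8.14 (7.42 to 7.49) and ISU1 at 11.9 (11.2 to 11.3). Early arrays standing low were 0 day replicate 1 for YDL241W at 5.87 (6.85 to 6.99) and for RPS22A at 14.0 (14.2 in the others, which are tied at the top value of the normalised scale), and 0 day replicate 2 for MET1 at 9.24 (9.90 to 10.0). The early array standing high was 0 day replicate 2 for RFA3 at 8.87 (8.10 to 8.20). Among list medians, the lysine genes stood low in 14 day replicate 2 at -1.89 (-1.33 to -1.23), and the cytosolic ribosomal proteins stood low in 0 day replicate 1 at -0.11 (0.03 to 0.04).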

How the results depend on the processing

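Of 95 named genes, 28 were called under each of 23 alternatives, among them ECM13, ROX1, IDH1, HAP4, RNR1, LYS9, RPS1B and SMF3, and all 95 kept their direction wherever they were tested. ERG1 was lost under 16 alternatives, MET1 and TIF4631 under 14 each. Without normalisation 1585 genes were called, 1520 higher and 65 lower, with the median of all genes at 0.61. List medians then turned for translation factors (0.29), other amino acid synthesis (0.0035), iron and copper uptake (0.16), ribosome biogenesis (0.42), ergosterol synthesis (0.43) and ribonucleotide reductase and DNA damage (0.50). Relative to the median of all genes, these lists stayed negative in all 24 settings, except the last, which did in 19. The cell wall median turned to -0.040 without both 3 day arrays. Array weights gave 1494 calls, 870 higher, and the other settings of filter, floor, probe set, trend and model between 760 and 1065. Leaving out 1 array gave 496 to 1273 calls, 271 to 738 higher and 225 to 535 lower, with 0 to 16 calls between 3 and 0 days and 0 to 6 between 14 and 7 days. Leaving out both arrays of a time gave 449 calls (288 higher, 161 lower) without 3 days, 247 (119, 128) without 7 days and 62 (39, 23) without 14 days. Fewer arrays also lower the precision. With the replicate number as a block 1157 genes were called, but the deviations of same-numbered arrays from their group means correlated at only -0.09 to 0.29, so the numbers are not taken to pair samples. The late arrays each correlated best, over their values, with the same-numbered late array (0.965 and 0.940). The early arrays each did so with an array of the other number, which for 0 day replicate 1 was a late array, 7 day replicate 2 (0.884). A planned comparison of promoter motifs was not run.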

Other observations

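Further gene families were counted after their values were seen, so their counts are descriptions. They are to be set against 10.9% of all tested genes higher and 8.08% lower. Of 19 tested subunits of RNA polymerases I and III, which make ribosomal and transfer RNA, 10 fell (52.6%) after late freezing and 0 rose, with a median log2 difference of -0.81. The largest subunit of polymerase I, RPA190, fell by 1.44 ± 0.23 (SE, limma adjusted p = 0.00247). Without normalisation 0 of them were called lower and 2 higher. Leaving out 1 array gave 4 to 9 falls, 4 without 7 day replicate 1. Some transcripts these enzymes make were called higher in the same comparison, 4 of 4 genes annotated as ribosomal RNA, though not the precursor gene RDN37-1, and 29 of 90 transfer RNA genes. Among 15 karyopherins, which carry cargo through nuclear pores, 5 fell (33.3%) and 0 rose, led by KAP122 (-1.59) and KAP123 (-1.54), or 3 fell and 1 rose without normalisation. Genes of protein mannosylation, N-glycosylation and GPI anchors fell in 13 of 45 (28.9%) and rose in 0, led by GWT1, of anchor synthesis (-1.71). Their median of -0.36 was 0.10 without normalisation.

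Of 4 subunits of the CCAAT-binding activator, HAP2, HAP4 and HAP5 rose by 1.72, 2.20 and 1.60, and HAP4 is counted in the respiratory chain list too. The eisosome genes NCE102, LSP1, PKH1 and PIL1, of plasma membrane domains, rose by 2.10, 1.57, 1.24 and 1.21, 4 of 9 tested (44.4%), and 1 was called without 7 day replicate 1 or 14 day replicate 1 and 2 without 3 day replicate 2. The ammonium permeases MEP2 and MEP3 fell by 1.90 and 1.72, with MEP1 not called (-0.33), and both calls held under every omission of 1 array.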
